A study of Mus musculus with 34 samples.

Results

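The 39 genes described here code for the lysosome: 9 cathepsins, 12 other hydrolases and their helper proteins, 8 proteins of the lysosomal membrane, 7 subunits of the proton pump (V-ATPase) and the 3 transcription factors Tfeb, Tfe3 and Mitf. They were chosen by function and found by symbol, all 39, among 21631 protein-coding genes on chromosomes 1 to 19 and X in the RefSeq table of GRCm38.p6, the assembly behind mm10. Histone marks had been measured by ULI-NChIP-seq, an immunoprecipitation of native chromatin scaled down for few cells, in hippocampal microglia of Tmem119-tdTomato+/- mice, whose microglia carry a red reporter. Mice labelled FGR, from a study of intrauterine growth restriction, were compared with controls (Ctrl). Both groups share the reporter genotype and, for replicates 1 to 3, an age of 3 weeks after birth; replicate 4 has no age label. The labels say neither how growth was restricted nor whether a library came from 1 mouse or a pool. Every p-value below therefore measures the spread between libraries, which may be technical.

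Lysosomes break down what microglia take up, from dying cells to synaptic debris. Cathepsins cut proteins, the other hydrolases cleave sugars and lipids, and the V-ATPase pumps protons inward to give the low pH these enzymes need. Tfeb, Tfe3 and Mitf are basic helix-loop-helix factors that bind a short promoter element of lysosomal genes with the core CACGTG, known as the CLEAR element. H3K4me3 marks active promoters, H3K9ac and H3K27ac mark active promoters and enhancers, and H3K9me3 marks silenced chromatin.

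RefSeq promoter windows (GRCm38.p6, 250 bases before to 50 after a listed start) were matched by symbol for 32 members, all but Atp6v1h, Asah1, Ctsh, Atp6v0d2, Ctsb, Npc1 and Atp6v1b2. CACGTG, which reads the same on both strands, was present in the windows of 11 of the 32 members (34.4%) and of 1558 of 17274 genes (9.02%). The longer TCACGTGA, which contains the core, was present in 6 members (18.8%) and 1.42% of genes. The longest form searched, which extends it by a further base on each side, was found in 0 of the 32 members. Among the 17274 genes it occurred in 82 (0.475%), so the excess in members did not extend to this form. Cathepsins held the core in 4 of 7 (Ctsa, Ctsd, Ctsf, Ctsl), other hydrolases in 3 of 11 (Gaa, Gla, Glb1), membrane proteins in 2 of 7 (Lamp1, Mcoln1), pump subunits in 2 of 4 (Atp6v0d1, Atp6v1a) and the Tfeb family in 0 of 3. A match describes the letters and is not evidence of binding. The 200 bases before the listed start of 5 of these genes are printed 5′ to 3′ on the strand of the gene, with the core in capitals, because the marks at these starts are followed below.
Lamp1, chr8:13158961-13159160, plus strand: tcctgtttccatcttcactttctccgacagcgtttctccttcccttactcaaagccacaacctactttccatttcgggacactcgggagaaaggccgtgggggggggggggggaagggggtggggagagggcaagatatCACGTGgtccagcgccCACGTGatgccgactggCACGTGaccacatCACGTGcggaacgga
Mcoln1, chr8:3500319-3500518, plus strand: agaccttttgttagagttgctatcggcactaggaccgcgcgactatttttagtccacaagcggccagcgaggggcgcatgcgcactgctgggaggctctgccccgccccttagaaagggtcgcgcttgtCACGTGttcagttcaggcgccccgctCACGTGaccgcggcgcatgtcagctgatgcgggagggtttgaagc
Gla, chrX:134601006-134601205, minus strand: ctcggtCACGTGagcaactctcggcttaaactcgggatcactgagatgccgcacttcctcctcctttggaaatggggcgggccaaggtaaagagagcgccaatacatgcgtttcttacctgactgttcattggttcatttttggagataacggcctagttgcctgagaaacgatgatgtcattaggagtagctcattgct
Ctsd, chr7:142387828-142388027, minus strand: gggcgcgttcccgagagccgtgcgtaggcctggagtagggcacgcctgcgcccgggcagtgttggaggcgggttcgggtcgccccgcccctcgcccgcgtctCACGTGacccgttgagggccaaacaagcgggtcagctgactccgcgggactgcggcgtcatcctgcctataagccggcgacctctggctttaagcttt
Atp6v1a, chr16:44139260-44139459, minus strand: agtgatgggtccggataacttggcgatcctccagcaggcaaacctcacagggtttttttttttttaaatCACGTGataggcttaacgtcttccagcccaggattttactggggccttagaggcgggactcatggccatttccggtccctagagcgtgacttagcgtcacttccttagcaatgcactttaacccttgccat
Lamp1, an abundant glycoprotein of the lysosomal membrane, holds 4 cores, the first beginning 61 and the last 15 bases before its start. Mcoln1, a calcium channel of the lysosome, holds 2, at 71 and 45 bases. Gla, the alpha-galactosidase deficient in Fabry disease, holds 1 at 194 bases and another at 227, beyond the stretch printed. Ctsd, an aspartic protease, holds 1 at 98 bases and another at 245, and Atp6v1a, the catalytic subunit of the pump, 1 at 131 bases.

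Some properties of the peak lists bear on all values below. A Ctrl library held 16598 to 18391 H3K4me3, 42220 to 47729 H3K9ac or 45988 to 50116 H3K27ac peaks. An FGR library held 43175 to 49045, 54853 to 87128 or 53492 to 78143 of them. The median H3K27ac peak was 825 to 919 bp wide in Ctrl and 314 to 365 bp in FGR. Read depth is unknown. The libraries labelled FGR H3K4me3 resembled the Ctrl H3K9ac libraries (mean Pearson r of 0.908 over library pairs, across 21631 genes, which are no independent replicates) more than the Ctrl H3K4me3 libraries (0.822). Over all genes, those labelled FGR H3K9ac and FGR H3K27ac were closest to the Ctrl libraries of their own mark (0.757 and 0.935). Seen from Ctrl H3K9ac, the libraries labelled FGR H3K4me3 (0.908) and FGR H3K27ac (0.896) were closer than those labelled FGR H3K9ac (0.757). Over the group means of the 39 members, Ctrl H3K9ac had an r of 0.957 with FGR H3K27ac, 0.956 with FGR H3K4me3 and 0.824 with FGR H3K9ac, and Ctrl H3K27ac had 0.913 with FGR H3K27ac. Whether each FGR library holds the mark its label names was not tested. Each difference below is between libraries as labelled, and would compare different marks where a label is wrong; this bears on the H3K9ac results as on the others. Group and list length cannot be told apart in any mark, nor group and peak width in H3K9ac and H3K27ac. The same holds for group and background in H3K4me3, H3K9ac and H3K27ac. The median H3K4me3 widths overlap: 537 to 559 bp for the Ctrl libraries, 539 to 567 bp for those labelled FGR. The 6 microglia marker genes P2ry12, Tmem119, Cx3cr1, Csf1r, Sall1 and Fcrls had peaks in both groups in all 3 marks.

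In the Ctrl libraries the lysosome genes had wider acetylation than the median gene. Coverage is given in kb: the length under called peaks in a window reaching 2.5 kb to each side of both gene ends, named end coverage from here on. This length cannot exceed the window, at most 5 kb an end, so a wider peak is counted only in part. The median over members was 3.33 kb for H3K27ac, against 1.72 kb over all genes tested, and 2.59 against 1.31 kb for H3K9ac. For H3K4me3 it was 1.06 against 0.678 kb. Asah1 (acid ceramidase) had no peak at either annotated end in any library of the 3 marks, and Atp6v0d2 (a pump subunit of osteoclasts and macrophages) had one in FGR replicate 2 of H3K27ac alone, so the other 37 genes were tested. The windows of 26 of the 39 also reach into the window of another protein-coding gene, so a value can hold a neighbour's peak.

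**Figure D1:**
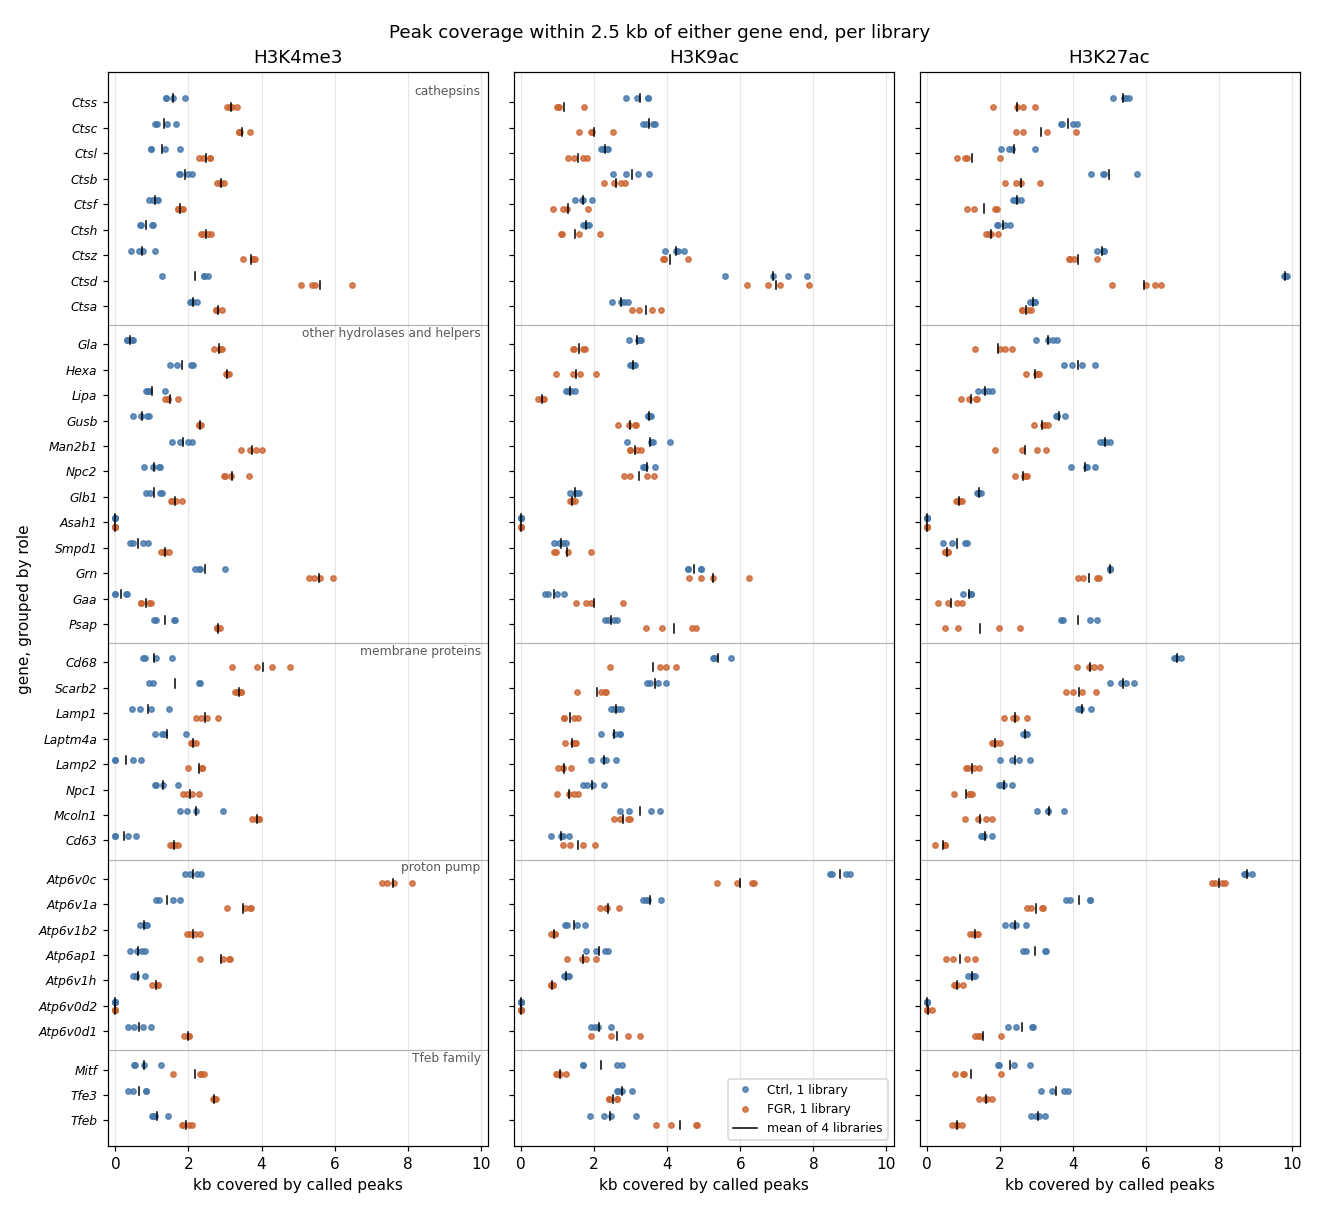
End coverage in kb (x axis) of the 39 genes (rows, grouped by role) for H3K4me3, H3K9ac and H3K27ac. Each point is 1 library, of 4 Ctrl and 4 FGR libraries a mark; FGR points lie to the right in H3K4me3, to the left for most genes in H3K27ac, and on either side in H3K9ac, where Tfeb, Psap, Gaa and Ctsa lie to the right.

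In the libraries labelled H3K9ac the members split, with more falls than rises. At their ends, 18 of the 37 members tested fell in FGR, 4 rose and 15 did not pass the test (limma, Benjamini-Hochberg adjusted p under 0.05 over all genes). Over all 15605 genes tested, 30.0% were lower and 28.5% higher. The median difference was -0.44 kb over the members and 0.0308 kb over all genes. The members began with more coverage in Ctrl (median 2.59 against 1.31 kb), and a gene at 0 in Ctrl cannot fall. The shares of all genes given here and below are not matched for Ctrl coverage. By role, 6 of 8 membrane proteins, 4 of 6 pump subunits, 4 of 11 other hydrolases, 3 of 9 cathepsins and 1 of 3 Tfeb family genes fell.

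Among cathepsins, Ctss, the cysteine protease that trims the invariant chain in antigen-presenting cells, covered 3.47, 2.87, 3.16 and 3.49 kb in Ctrl replicates 1 to 4 and 0.996, 1.03, 1.72 and 0.98 kb in FGR. The groups do not overlap, and the difference was -2.07 ± 0.206 kb (SE, adjusted p = 7.08e-05, limma). Ctsc, which activates serine proteases of immune cells, fell from 3.51 ± 0.152 to 1.99 ± 0.389 kb (SD, n = 4 each; adjusted p = 0.000218, limma). Ctsl, an endopeptidase, fell from 2.29 ± 0.0902 to 1.56 ± 0.233 kb (SD, n = 4 each; adjusted p = 0.00141, limma). Ctsb, another cysteine protease, covered 2.87, 2.51, 3.51 and 3.2 kb in Ctrl and 2.74, 2.85, 2.28 and 2.54 kb in FGR, with overlapping groups (adjusted p = 0.125, limma). Ctsd had the largest p of the cathepsins, with 6.88, 7.82, 5.58 and 7.31 kb in Ctrl and 7.08, 7.87, 6.75 and 6.19 kb in FGR (adjusted p = 0.899, limma). These groups overlap, and the Ctrl mean of Ctsd lay above that of 99.8% of the genes tested.

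The membrane proteins had the lowest median difference of the 5 roles, -1.12 kb. Lamp1 covered 2.55, 2.64, 2.45 and 2.72 kb in Ctrl and 1.18, 1.45, 1.56 and 1.17 kb in FGR. Every FGR library lay below every Ctrl library, and Lamp1 fell by 1.25 ± 0.121 kb (SE, adjusted p = 6.04e-05, limma). Its relative Lamp2 fell from 2.26 ± 0.282 to 1.16 ± 0.145 kb (SD, n = 4 each; adjusted p = 0.000384, limma). Cd68, a macrophage glycoprotein used as a marker of phagocytic microglia, covered 5.32, 5.73, 5.26 and 5.28 kb in Ctrl and 4.23, 3.8, 2.44 and 3.96 kb in FGR, again without overlap (adjusted p = 0.00244, limma). Scarb2, which carries glucocerebrosidase to the lysosome, fell by 1.59 kb, Laptm4a fell by 1.14 kb and the cholesterol transporter Npc1 fell by 0.621 kb. Mcoln1 stood at 3.25 ± 0.516 and 2.79 ± 0.199 kb (SD, n = 4 each; adjusted p = 0.13, limma), and Cd63, a tetraspanin of late endosomes, at 1.09 ± 0.204 and 1.54 ± 0.392 kb (adjusted p = 0.0755); neither passed the test.

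In the proton pump, Atp6v0c, the subunit of the membrane ring that carries the protons, covered 8.45, 8.9, 9.01 and 8.5 kb in Ctrl and 5.91, 6.38, 6.33 and 5.35 kb in FGR. The groups lie far apart, and the fall of 2.72 ± 0.241 kb (SE, adjusted p = 3.84e-05, limma) was the largest of the 37 genes. Subunits of the cytosolic part fell as well: Atp6v1a fell by 1.15 kb, Atp6v1b2 fell by 0.553 kb and Atp6v1h, a regulatory subunit, fell by 0.392 kb. Atp6v0d1 covered 2.09, 2.45, 1.91 and 2.03 kb in Ctrl and 2.45, 3.25, 2.94 and 1.91 kb in FGR, where the groups overlap (adjusted p = 0.129, limma).

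The other hydrolases and helpers went both ways. Gla covered 2.96, 3.28, 3.19 and 3.26 kb in Ctrl and 1.43, 1.75, 1.7 and 1.45 kb in FGR, without overlap, and fell by 1.59 ± 0.118 kb (SE, adjusted p = 1.67e-05, limma). Hexa, the hexosaminidase subunit mutated in Tay-Sachs disease, fell by 1.55 kb, Lipa, the lysosomal acid lipase, fell by 0.767 kb and Gusb, the beta-glucuronidase, fell by 0.543 kb. Psap, the precursor of the saposins that help hydrolases reach their lipids, went from 2.39, 2.54, 2.3 and 2.62 kb in Ctrl to 3.85, 4.79, 4.66 and 3.42 kb in FGR. All FGR libraries were higher, and Psap rose by 1.72 ± 0.289 kb (SE, adjusted p = 0.00107, limma). Gaa, the acid alpha-glucosidase, rose from 0.886 ± 0.233 to 2 ± 0.561 kb (SD, n = 4 each; adjusted p = 0.00606, limma). Smpd1, the acid sphingomyelinase, had the largest p of the group, with 1.08 ± 0.14 and 1.26 ± 0.466 kb (adjusted p = 0.468, limma).

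The transcription factors diverged. Tfeb covered 1.88, 3.15, 2.45 and 2.27 kb in Ctrl and 4.8, 4.79, 3.7 and 4.09 kb in FGR, without overlap, and rose by 1.91 ± 0.324 kb (SE, adjusted p = 0.00112, limma). Mitf covered 1.7, 2.62, 1.68 and 2.76 kb in Ctrl and 1.23, 0.968, 1.06 and 0.959 kb in FGR, also without overlap, and fell by 1.13 ± 0.258 kb (SE, adjusted p = 0.00503, limma). Tfe3 covered 2.65, 3.02, 2.63 and 2.75 kb in Ctrl and 2.63, 2.41, 2.62 and 2.42 kb in FGR and did not pass the test (adjusted p = 0.102, limma), although its FGR libraries all lay just below its Ctrl libraries. Ctsa, the carboxypeptidase that protects beta-galactosidase, was the remaining gene to rise, from 2.49, 2.83, 2.72 and 2.91 kb to 3.59, 3.83, 3.24 and 3.05 kb (adjusted p = 0.0101, limma).

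These H3K9ac counts changed with peak width. With each summit given 200 bp on either side in place of its called width, 0 members were lower and 6 higher, where 2.86% of genes were lower and 18.4% higher. Other scalings kept more members lower than higher: 23 and 3 with lists cut to equal length (genes 37.4% and 22.3%), 18 and 6 after quantile normalization (genes 31.6% and 23.0%), and 17 and 6 with depth matched (genes 26.9% and 33.0%). Equal list length and depth matching drop peaks and leave those kept at their deposited width, so neither adjusts for peak width.

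A split by gene end, made after the values were seen and without a test, places the differences. At the 5′ end alone, all FGR libraries lay below all Ctrl libraries in 20 of 32 members and above them in 0, while over the 11841 genes with a peak there the shares were 35.2% and 20.1%. At the 3′ end alone, 20 members had a peak in at least 2 libraries, 8 of them in FGR libraries alone, which could not be lower. There FGR lay above Ctrl in 5 (Ctsa, Gaa, Psap, Grn and Tfeb) and below in 3 (Gla, Cd68 and Atp6v0c), against 29.6% and 12.5% of 6480 genes, so the share that was higher is near that of all genes. Ctsa, Gaa and Grn had no 3′ peak in any Ctrl library.

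At its 3′ end Psap covered 0.317, 0.29, 0.627 and 0.55 kb in Ctrl and 1.86, 3.02, 2.67 and 1.79 kb in FGR, and at its 5′ end 2.02 ± 0.244 and 1.85 ± 0.18 kb (SD, n = 4 each). Grn, which codes for progranulin, a glycoprotein cut into granulins in the lysosome, had 1.64, 2.36, 1.91 and 1.54 kb at its 3′ end in FGR. At its 5′ end Grn went the other way, from 4.93, 4.56, 4.56 and 4.94 kb to 3.61, 3.87, 2.69 and 3.38 kb, and over both ends it did not pass the test (0.505 ± 0.314 kb, SE, adjusted p = 0.19, limma). A limma fit within 2.5 kb of every listed start, planned as an alternative, gave 1 member higher (Tfeb) and 22 lower of 32, where 24.5% and 38.2% of genes were. In that fit, which for Psap takes in a second start inside the gene, Psap and Grn turned to -2.06 and -1.36 kb. Neighbouring genes reach into the windows of the 5 genes higher at the 3′ end: Neurl2, Pltp and Spata25 by Ctsa, Ccdc40 and Eif4a3 by Gaa, Cdh23 by Psap, Fam171a2 by Grn and Pgc by Tfeb. The 3 genes lower there share windows too. Btk, Hnrnph2 and Rpl36a lie by Gla, Eif4a1 and Mpdu1 by Cd68, and Amdhd2 by Atp6v0c.

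**Figure D2:**
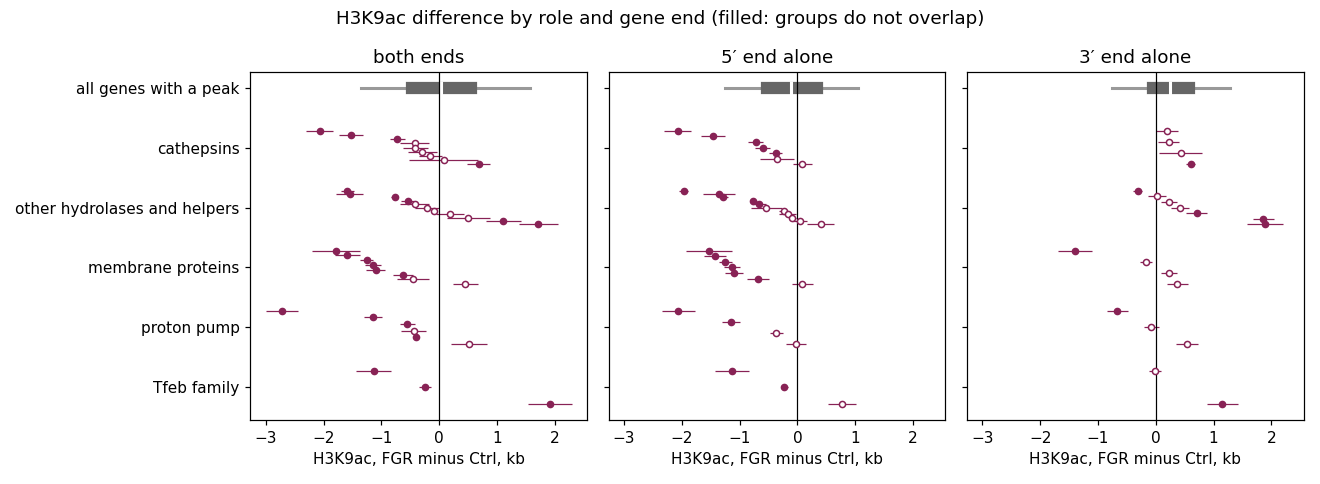
H3K9ac difference in kb, FGR minus Ctrl (x axis), for members by role, over both gene ends, the 5′ end and the 3′ end. Error bars are the standard error of the difference of 4 against 4 libraries, filled points are genes whose groups do not overlap, and the grey bar and line give the middle 50% and 90% of all genes with a peak; no filled point lies to the right of 0 at the 5′ end, and 5 do at the 3′ end.

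Markers of other cells moved with group as well. In H3K9ac, end coverage at 5 neuron markers summed to 0.325 to 0.429 kb in Ctrl, with 3 of the 5 (Snap25, Syt1, Map2) at 0, and to 3.121 to 4.53 kb in FGR, with Snap25 at 0. At the 6 microglia markers it was 31.8 to 33.8 kb in Ctrl and 20.1 to 22.4 kb in FGR. This list was split, with 4 markers lower and 2 higher. Tmem119 rose from a mean of 4.13 to 5.45 kb and Sall1 from 5.6 to 6.28 kb (adjusted p = 0.0138 and 0.0135, limma). Astrocyte markers summed to 0.406 to 2.15 and 2.19 to 4.81 kb, oligodendrocyte markers to 1.53 to 3.36 and 3.7 to 6.92 kb, endothelial markers to 1.51 to 2.75 and 2.57 to 5.64 kb, and markers of border-associated macrophages to 2.4 to 2.69 and 0 to 1 kb. In H3K4me3 the sums in Ctrl and FGR were 0 and 0.967 to 1.19 kb for neurons (all 5 at 0 in Ctrl, Snap25 and Syt1 in FGR), 1.36 to 1.78 and 2.84 to 3.11 kb for astrocytes, 0.841 to 1.21 and 3.7 to 4.04 kb for oligodendrocytes, 0.67 to 1.09 and 2.64 to 4.05 kb for endothelium, 0 to 0.291 and 2.82 to 3.02 kb for border-associated macrophages and 12.8 to 15.9 and 30.6 to 33.6 kb for microglia. In H3K27ac the microglia markers went from 51.2 to 52.3 kb in Ctrl to 27.8 to 32.7 kb in FGR. There the other lists gave 0 and 0 to 0.364 kb for neurons, 0.274 to 1.1 and 0.206 to 0.823 kb for astrocytes, 2.22 to 3.01 and 1.19 to 1.73 kb for oligodendrocytes, 2.43 to 4.02 and 1.85 to 2.51 kb for endothelium and 2.98 to 3.4 and 1.52 to 2.44 kb for border-associated macrophages. Their part in the results of the 3 marks was not tested, and a smaller share of microglia cannot be told apart from less of the mark per cell.

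Other genes of the pathway came from a list of 69 enzymes, membrane proteins, pump subunits, sorting factors and regulators of Tfeb. For H3K9ac, 42 of the 68 tested fell and 8 rose, with a median difference of -0.561 kb, where 30.0% and 28.5% of all genes were lower and higher. Among them, 10 of 13 further membrane proteins, 8 of 11 further pump subunits and 10 of 15 regulators of Tfeb fell. For H3K27ac, 57 of 66 fell, beside 81.6% of all genes, and for H3K4me3 all 68 tested rose, beside 95.5%; both are near the share of all genes.

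H3K27ac end coverage was lower in FGR for nearly all members. It fell in 35 of 37 and rose in 0, where 81.6% of 11876 genes were lower and 0.185% higher, so most genes moved the same way. The median difference was -1.15 kb over the members and -0.707 kb over all genes. The members began with more coverage: their median went from 3.33 kb in Ctrl to 1.75 kb in FGR. That of all genes went from 1.72 to 0.963 kb. Whether the larger fall in kb follows from the higher start was not tested. Ctsd covered 9.86, 9.76, 9.8 and 9.84 kb in Ctrl and 6.26, 6.01, 6.42 and 5.06 kb in FGR. The groups lie far apart, with a fall of 3.88 ± 0.254 kb (SE, adjusted p = 3.39e-06, limma), and 0.295% of the genes tested fell by more. Ctss fell from 5.37 ± 0.191 to 2.47 ± 0.479 kb (SD, n = 4 each; adjusted p = 5.8e-06, limma). Ctsb went from 5.76, 4.83, 4.5 and 4.85 kb to 3.1, 2.13, 2.45 and 2.57 kb, without overlap (adjusted p = 4.73e-05, limma). Tfeb fell too, from 2.85, 3.07, 3.22 and 2.98 kb to 0.972, 0.815, 0.791 and 0.676 kb (adjusted p = 1.48e-06, limma), while its H3K9ac rose. Gaa, Psap and Tfeb were the members that rose in H3K4me3 and H3K9ac and fell in H3K27ac.

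Among membrane proteins, Cd68 covered 6.83, 6.96, 6.83 and 6.78 kb in Ctrl and 4.73, 4.44, 4.58 and 4.11 kb in FGR (adjusted p = 2.06e-06, limma). Lamp1 covered 4.21, 4.2, 4.5 and 4.13 kb in Ctrl and 2.44, 2.74, 2.36 and 2.11 kb in FGR (adjusted p = 7.44e-06, limma). For both genes every FGR library lay below every Ctrl library. Npc2, the cholesterol-binding partner of Npc1, fell from 4.32 ± 0.278 to 2.63 ± 0.15 kb (SD, n = 4 each; adjusted p = 1.2e-05, limma). Atp6ap1, an accessory subunit of the pump, went from 3.23, 2.64, 2.72 and 3.27 kb to 1.3, 0.715, 1.11 and 0.518 kb, without overlap (adjusted p = 2.49e-05, limma). Atp6v0c fell less in covered kb, from 8.75 ± 0.101 to 7.98 ± 0.17 kb (SD, n = 4 each; adjusted p = 0.000217, limma). Its peaks filled the 5 kb window at the 5′ end in all 4 Ctrl libraries, which caps the value. The peak over its first listed start had a median width of 10930 bp in Ctrl and 5058 bp in FGR. The 2 members that did not pass were Ctsa, at 2.91 ± 0.0633 and 2.71 ± 0.13 kb (adjusted p = 0.092, limma), and Smpd1, at 0.818 ± 0.315 and 0.543 ± 0.0506 kb (adjusted p = 0.116).

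The H3K27ac counts changed at a fixed peak width and after quantile normalization. At a fixed peak width 0 members were lower and 14 higher, where 1.15% of genes were lower and 25.4% higher. After quantile normalization, which gives all libraries the same distribution, 8 were lower and 8 higher, where 11.3% and 12.5% of genes were. Of the 35 that fell, 28 had a positive difference at a fixed width and 17 after quantile normalization. Gusb, Grn, Scarb2, Laptm4a and Atp6v0c were called higher in both. Members lower numbered 35 at equal list length (genes 87.2% lower and 0.0516% higher), 31 of 32 around listed starts (genes 83.3% and 0.0973%) and 30 with depth matched (genes 72.1% and 1.12%).

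Around the starts, H3K27ac peaks in FGR often lay beside the start and not over it. An H3K27ac peak lay over the start in all 4 Ctrl libraries at 28 of the 32 members with a listed start, and in all 4 FGR libraries at 10. With the start of each gene chosen in the same way, these shares were 38.3% and 9.7% of the 17274 genes with a listed start. At 16 members no FGR library had a peak over the start, against 0 in Ctrl; over all genes it was 76.7% against 53.2%. The nearest H3K27ac summit lay within 500 bp of the start at 26 members in Ctrl and 27 in FGR. At Lamp1 a peak with a median width of 4168 bp lay over the start in Ctrl, and in FGR no peak did, with the median nearest summit at -278 bp (negative before the start). At Ctsd the Ctrl peak had a median width of 22040 bp, and in FGR the nearest summit lay at 118 bp with no peak over the start. For H3K9ac the start was covered in all 4 libraries at 28 members in Ctrl and 27 in FGR (genes 41% and 51.1%), and for H3K4me3 at 8 and 20 (genes 12.5% and 45.9%).

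**Figure D3:**
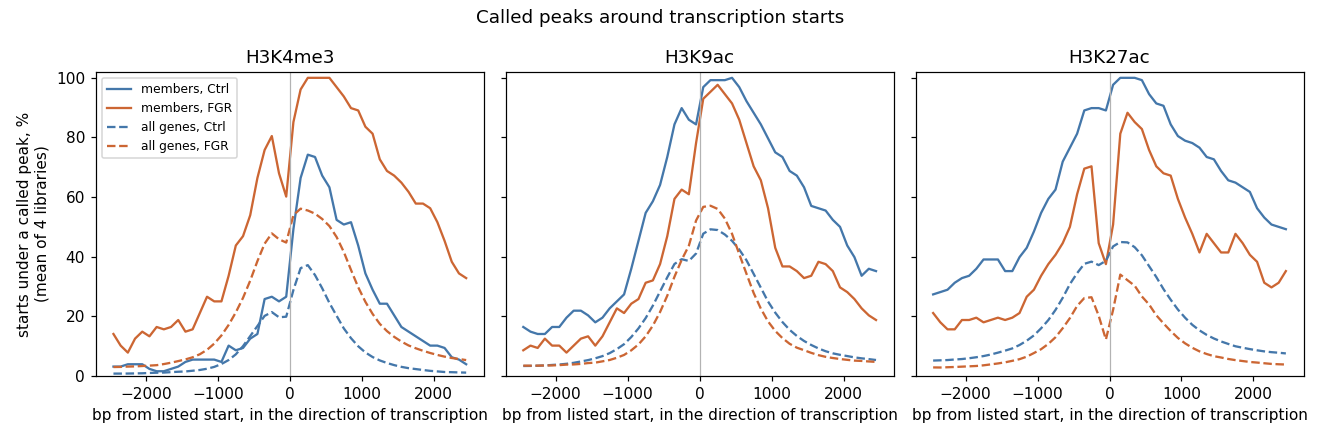
Percent of starts under a called peak (y axis) by distance from the start in bp (x axis, positive in the direction of transcription), as the mean of 4 libraries, for 32 members (solid) and all genes with a listed start (dashed) in Ctrl and FGR. In H3K27ac an all-library peak over the start was present at 28 members in Ctrl and 10 in FGR. The solid curves show the mean percent per library instead of this count.

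In the libraries labelled FGR H3K4me3, which resembled Ctrl H3K9ac, end coverage rose against Ctrl H3K4me3 in all 37 members tested, where 95.5% of 14043 genes were higher and 0% lower, so the count is near that of the genome. The sizes ranged widely. Atp6v0c went from 2.23, 2.05, 1.92 and 2.35 kb in Ctrl to 7.29, 8.11, 7.62 and 7.44 kb in FGR, a rise of 5.48 ± 0.179 kb (SE, adjusted p = 2.24e-07, limma), the largest of the 37. Ctsd went from 2.54, 1.27, 2.43 and 2.44 kb to 5.39, 6.47, 5.47 and 5.09 kb (adjusted p = 2.6e-05, limma). Gla went from 0.448, 0.33, 0.306 and 0.479 kb to 2.87, 2.91, 2.7 and 2.86 kb (adjusted p = 2.03e-07, limma). In all 3 genes the groups lie far apart. Lipa, with 0.901, 0.838, 1.37 and 0.92 kb in Ctrl and 1.37, 1.43, 1.44 and 1.72 kb in FGR, had the smallest rise, 0.485 ± 0.133 kb (SE, adjusted p = 0.00674, limma), and its FGR replicate 1 lay close above Ctrl replicate 3.

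Ctsz, a carboxypeptidase, rose from 0.724 ± 0.273 to 3.7 ± 0.15 kb, and Tfe3 from 0.634 ± 0.25 to 2.7 ± 0.0305 kb (SD, n = 4 each). Tfeb covered 1.1, 1.44, 1.01 and 1.02 kb in Ctrl and 2.01, 2.09, 1.85 and 1.83 kb in FGR. Cd68 went from 0.822, 0.766, 1.1 and 1.56 kb to 3.2, 4.78, 4.3 and 3.88 kb. These directions depend on scale: after quantile normalization 12 members were higher and 7 lower, where 15.8% and 24.2% of genes were, with Tfeb at -0.344 kb and Lipa at -0.549 kb. At a fixed peak width 7 members were higher and 1 lower, where 20.0% of genes were higher and 1.92% lower. All 37 were higher at equal list length (genes 89.3% higher and 1.37% lower) and with depth matched (genes 97.0% and 0%), and all 32 around listed starts (genes 96.6% and 0.00906%). With depth matched, 7 of the 37 had no peak in any Ctrl library and could not be lower. Around listed starts this held for 1 of the 32.

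Tfeb and Mitf have 3 listed starts each, on the plus strand, and these differed. They were picked out after their values were seen, and no test was made on them. The values are kb under peaks within 1 kb of a start. At the first start of Tfeb (chromosome 17, position 47737037) mean H3K9ac coverage was 1.01 ± 0.012 kb (SD) over the 4 Ctrl and 1.06 ± 0.0396 kb over the 4 FGR libraries. The third start (47785744) had no H3K9ac in any Ctrl library and 0.397, 0.8, 0.517 and 0.518 kb in FGR. The windows of the first and second start of Tfeb (47737931) overlap, and H3K27ac fell in both. Ctrl libraries held 1, 1.01, 1.03 and 1.01 kb around the first start. Around the second they held 1.44, 1.68, 1.75 and 1.48 kb. FGR libraries held the same 0.443, 0.371, 0.273 and 0.346 kb around either start, below every Ctrl library. The fall is therefore not specific to the second start, and no FGR peak lay over either.

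At the second start of Mitf (chromosome 6, position 97929817) H3K9ac covered 0.954, 1.21, 0.556 and 0.583 kb in Ctrl and 0 in all 4 FGR libraries. H3K4me3 showed the reverse there, with 0 in Ctrl and 0.403, 0.811, 0.362 and 0.203 kb in FGR. The first Mitf start (97807058) had all 3 marks in every library, with H3K9ac at 1.54 ± 0.2 and 0.993 ± 0.0484 kb (SD, n = 4 each). The third (97991783) had no peak of the 3 marks in any library.

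**Figure D4:**
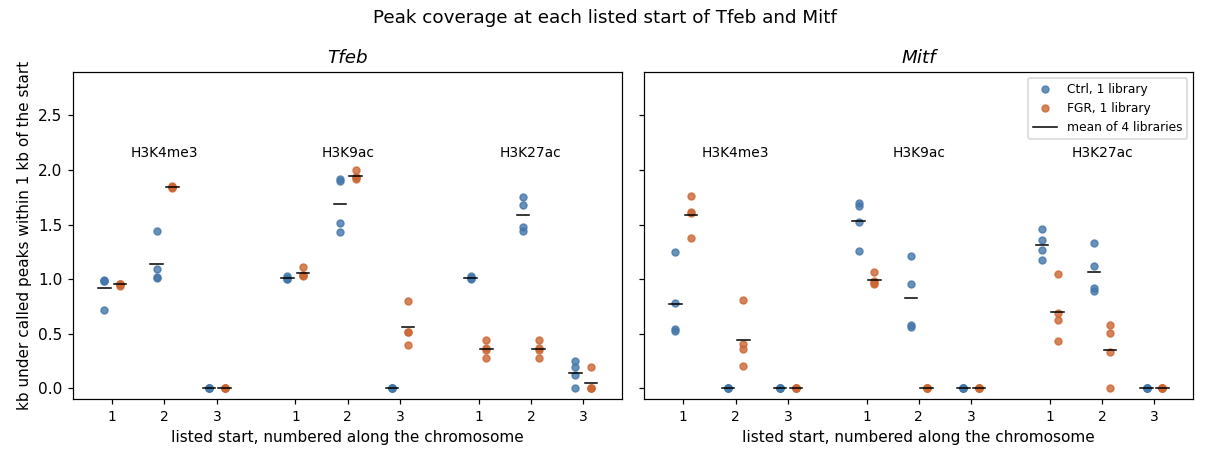
Kb under called peaks within 1 kb (y axis) of each listed start of Tfeb and Mitf (x axis) in the 3 marks; points are single libraries, of 4 Ctrl and 4 FGR a mark. The second Mitf start has H3K9ac in Ctrl alone and H3K4me3 in FGR alone, and the third Tfeb start has H3K9ac in FGR alone.

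Over gene bodies, from annotated start to end, H3K9ac coverage fell in 23 of 39 members and rose in 5 (Ctsa, Gaa, Glb1, Atp6v1h and Tfeb), where 26.3% of 16324 genes were lower and 29.7% higher. The count of 5 that rose was 2 or 3 without any 1 of Ctrl replicates 1 to 4 and FGR replicates 1 to 3, and 7 without FGR replicate 4. After quantile normalization 23 were lower and 5 higher (genes 33.3% and 24.0%), and at equal list length 25 and 3 (genes 35.2% and 21.5%). Tfeb was covered over 15, 15.9, 14.5 and 13.9 kb in Ctrl and 23.5, 22.4, 19.1 and 18.7 kb in FGR, without overlap, a rise of 6.07 ± 1.14 kb (SE, adjusted p = 0.00348, limma). Mitf fell from 8.41, 10.6, 10.9 and 10.3 kb to 3.52, 4.14, 2.37 and 3.35 kb (adjusted p = 0.000124, limma). Atp6v0d2, untested at its ends, had 2.3, 1.83, 1.93 and 2.33 kb in its body in Ctrl and none in any FGR library. It is counted among the 23 that fell, and could not be higher. Ctsb, which did not pass at its ends, fell over its body from 9.72 ± 0.804 to 5.1 ± 0.611 kb (SD, n = 4 each; adjusted p = 0.000192, limma).

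H3K27ac body coverage fell in 35 of 39 members and rose in 0, where 71.5% of genes were lower and 0.226% higher. Scarb2 fell from 15.9, 16.3, 15.9 and 15.5 kb to 8.37, 8.97, 8.2 and 7.01 kb (adjusted p = 1e-05, limma). H3K4me3 body coverage rose in all 39 members, where 93.3% of genes were higher and 0.0205% lower. For 1 of the 39 no Ctrl library had an H3K4me3 peak in the body, so it could not be lower. After quantile normalization the members higher and lower were 9 and 4 for H3K4me3 (genes 17.4% and 26.4%) and 9 and 4 for H3K27ac (genes 10.3% and 8.44%). At equal list length 37 members were higher for H3K4me3 (genes 84.0% higher and 1.21% lower) and 36 lower for H3K27ac (genes 80.7% lower and 0.0413% higher). Asah1, which had no peak at its annotated ends, rose in H3K4me3 over its body from 1.11 ± 0.179 to 3.99 ± 0.227 kb (SD, n = 4 each; adjusted p = 1.36e-06, limma).

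H3K9me3 was compared over gene bodies in replicates 1 to 3. The Ctrl lists reached down to a −log10 p of 1 and the FGR lists to 3.42, so threshold and group cannot be told apart in the lists as deposited. Of 19 members with a region in at least 2 libraries, 9 were lower in FGR and 0 higher, where 61.8% of 12489 genes were lower and 0.104% higher. In 13 of the 19 no FGR library had a region, so these entered through Ctrl alone and could not be higher. Atp6v1h covered 17.3, 17.1 and 16.5 kb in Ctrl and 4.47, 4.71 and 3.8 kb in FGR (adjusted p = 0.000128, limma). Scarb2 covered 6.09, 6.78 and 6.21 kb in Ctrl and 1.43, 2.84 and 2.56 kb in FGR (adjusted p = 0.00255, limma). Mitf covered 31, 37.6 and 17.3 kb in Ctrl and 2.61, 1.67 and 1.88 kb in FGR (adjusted p = 0.0116, limma). In none of the 3 do the groups overlap. The others were Tfeb, Atp6v1a, Asah1, Atp6v0d2, Glb1 and Ctsb. Without any 1 of FGR replicates 1 to 3, 5 members were lower.

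At a common threshold of −log10 p of 3, no Ctrl library kept a region in the body of any member, while Atp6v1h, Mitf and Scarb2 kept their FGR values above and Mcoln1 kept 0.458, 0.711 and 0.485 kb. The 5 members tested thus entered the fit through FGR alone and could not be lower; 4 passed, which is no evidence of a direction. Over all genes 41.9% of 2319 tested were higher and 0.259% lower. At equal list length 1 member was higher and 0 lower (genes 2.53% and 1.09%), and after quantile normalization 6 and 1 (genes 17.2% and 20.2%). At the common threshold none of the 9 cathepsins held a region in either group.

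**Figure D5:**
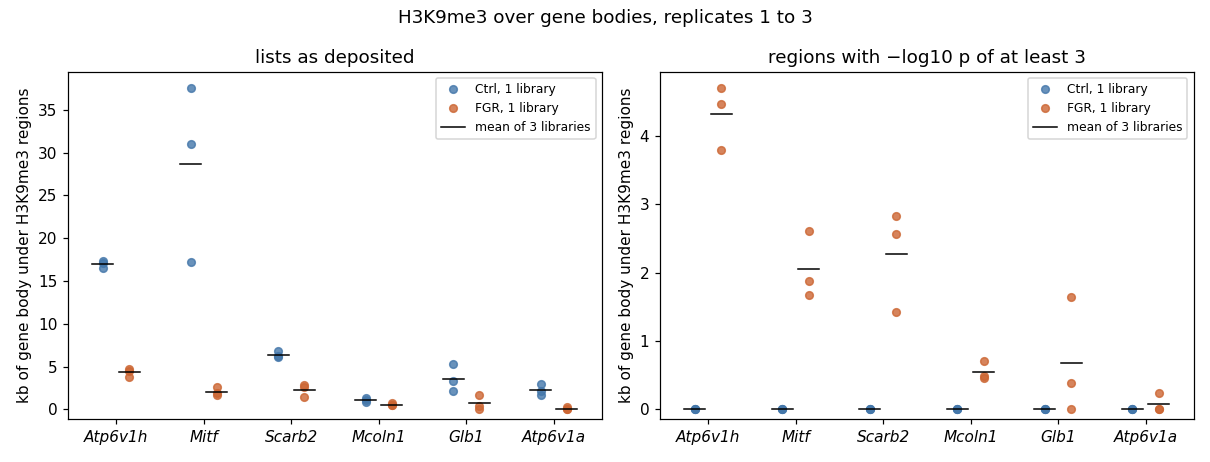
Kb of gene body under H3K9me3 regions (y axis) for members with a region in FGR, from the lists as deposited and from regions with a −log10 p of at least 3. Points are libraries of replicates 1 to 3 of Ctrl and FGR; Ctrl lies above FGR in the deposited lists and at 0 at the common threshold.

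Members with and without CACGTG in the promoter window were set side by side as a description. The median H3K9ac difference was -0.409 kb over the 11 with the core, of which 4 fell and 2 rose, and -0.543 kb over the 21 without, of which 11 fell and 2 rose. For H3K27ac the medians were -1.15 and -1.19 kb, and for H3K4me3 1.33 and 1.73 kb. Of the genes whose promoters are printed above, Gla, Lamp1 and Atp6v1a fell in H3K9ac, and Ctsd and Mcoln1 did not pass the test.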

How the data were processed

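The authors deposited peak lists for 32 ULI-NChIP-seq libraries; 2 input libraries have no peak list here. Per the submitters' processing notes, the build was mm10 and the tools include the peak caller MACS2 2.2.7.1; DiffBind 3.12.0, SAMtools 1.3.1, the aligner Bowtie2 2.4.5 and the trimmer Trim Galore 0.6.5 are also named. Each deposited peak carries the authors' score, its fold enrichment as a ratio over local background, and −log10 p and −log10 q values, per library. H3K9me3 replicates 1 to 3 are broad lists and replicate 4 a narrow one, which was described and not fitted. Depth is unknown.

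From the lists, the kb under peaks were computed per gene and library, within 2.5 kb of either gene end and over the body (Python 3.11.15). Each mark was fitted with limma 3.58.1 (R 4.3.3) over all genes with a peak in at least 2 libraries, with Benjamini-Hochberg adjustment and a threshold of 0.05, without a replicate block. The scripts were tested on simulated data. In each mark and role, the genes with the smallest p in each direction and the largest p were given by library, as were Ctsb, Ctsd, Lamp1, Cd68, Atp6v0d2 and Tfeb; other members are named by their values. The members and lists were chosen with earlier results of these data known. The split by gene end and the depth-matched alternative were chosen after seeing the data.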

Additional observations from a re-analysis of the deposited data

Results flagged for a closer look

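In groups of 4 libraries, 10 of the 141 looked at held a library that stood apart from the other 3 by Dixon's criterion, where chance gives about 1 in 20. In H3K4me3 end coverage, Ctsa had 2.92 kb in FGR replicate 1 and 2.75 to 2.77 kb in the others. Ctsd had 1.27 kb in Ctrl replicate 2 and 2.42 to 2.54 kb in the others, and Lipa 1.37 kb in Ctrl replicate 3 against 0.838 to 0.92 kb. FGR replicate 4 was low for Ctsz (3.48 kb against 3.76 to 3.81 kb) and Lamp2 (1.99 kb against 2.37 to 2.38 kb), and FGR replicate 1 was low for Mitf (1.59 kb against 2.33 to 2.41 kb). In H3K9ac end coverage, FGR replicate 3 was high for Ctss (1.72 kb against 0.98 to 1.03 kb) and Ctsz (4.58 kb against 3.9 to 3.92 kb) and low for Scarb2 (1.53 kb against 2.19 to 2.33 kb). Cd68 had 5.73 kb in Ctrl replicate 2 and 5.26 to 5.32 kb in the other Ctrl libraries.

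The narrow H3K9me3 lists of replicate 4, which entered no comparison, held regions in 3 member bodies in FGR and in none of these 3 in Ctrl. They covered 2.69 kb of Atp6v1h, 0.791 kb of Mitf and 0.208 kb of Scarb2. The Ctrl list held 257 regions in all and the FGR list 11204.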

How the results depend on the processing

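Directions of change in covered length depended on the scale of the peak lists and on peak width more than on any single library; the causes were not tested. After quantile normalization, members higher and lower numbered 12 and 7 for H3K4me3 ends, 9 and 4 for H3K4me3 bodies, 8 and 8 for H3K27ac ends, 9 and 4 for H3K27ac bodies and 6 and 1 for H3K9me3 bodies. Of the members called at their ends, 14 of 37 then changed sign in H3K4me3, 17 of 35 in H3K27ac and, over bodies, 6 of 9 in H3K9me3. Among the members named with values for a mark, changed differences (FGR minus Ctrl, kb), called in either setting, were, for H3K4me3, Ctsa -1.04, Ctsb -0.666, Ctsl -0.118, Lipa -0.5485, Mcoln1 -0.2995, Laptm4a -0.558, Atp6v1h -0.388 and Tfeb -0.344; for H3K27ac, Ctsa 1.19, Grn 1.5645, Cd68 0.0662, Scarb2 0.8865, Atp6v0c 1.57 and Atp6v1h 0.2725; and for H3K9me3, Ctsb 0.4765, Ctsf 0.576, Glb1 6.43, Lamp2 0.625, Scarb2 27.2, Mcoln1 8.2935, Atp6v1a 0.794, Atp6v1h 62.1 and Mitf 12.7. At a fixed peak width the counts were 7 higher and 1 lower for H3K4me3, 6 and 0 for H3K9ac and 14 and 0 for H3K27ac. In these marks the sign of the difference changed for 12, 9 and 28 of the members called in the lists as deposited, and 1, 0 and 14 were then called on the other side. Among those named with values the new differences were Ctsa -0.2, Ctsb -0.1, Ctsl -0.2, Lipa -0.1, Mcoln1 -0.2 and Tfeb -0.1 in H3K4me3, Ctsc 0.3, Ctsl 0.2, Ctss 0.153, Hexa 0.3855, Gla 0.2, Gusb 0.3835, Cd68 0.8, Scarb2 0.195 and Atp6v0c 0.6995 in H3K9ac, and Ctsd 3.27, Ctss 0.3125, Npc2 0.0272, Grn 0.9, Lamp1 0.9, Cd68 1.7, Scarb2 0.6845, Atp6v0c 1.36, Atp6v1h 0.2 and Mitf 0.285 in H3K27ac. Npc2, not called in H3K9ac in the lists as deposited, was called higher at a fixed width, at 0.6505. With a window of 1 kb Npc2 in H3K9ac came to 0.408. Around listed starts alone 1 member was higher in H3K9ac, with Psap at -2.06 and Grn at -1.36. With equal list lengths 3 members were higher over H3K9ac bodies. For H3K9me3 the counts were 1 higher and 0 lower at equal list length (Glb1 0.245, Scarb2 1.44, Atp6v1h 4.24 and Mitf 1.6), 4 and 0 at the common threshold, where members entered through FGR alone (Glb1 0.681, Scarb2 2.27, Mcoln1 0.551, Atp6v1h 4.33 and Mitf 2.05), and 4 lower within 2.5 kb of both ends, where members entered through Ctrl alone.

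Leaving out 1 library at a time gave 4 to 5 members higher and 18 to 20 lower for H3K9ac ends, 2 to 7 higher and 22 to 23 lower for H3K9ac bodies, 33 to 35 lower for H3K27ac at ends and over bodies, 37 higher at H3K4me3 ends, and 5 to 11 lower for H3K9me3 bodies. Same-numbered replicates did not deviate together in covered length (r of -0.021 to 0.0337 in the 3 narrow marks and -0.301 to -0.08 in H3K9me3). This cannot show whether same-numbered samples were paired, and the labels do not say. With a replicate block 4 members were higher and 19 lower for H3K9ac ends, 34 lower for H3K27ac ends, 37 higher for H3K4me3 ends, and 6 lower for H3K9me3. On a log2 scale, with 0.1 kb added, 4 members were higher and 18 lower for H3K9ac ends. On that scale 29 of 37 were lower for H3K27ac ends and 37 higher for H3K4me3 ends. With depth matched from each peak's background, an alternative chosen after seeing the data, H3K9ac gave 6 higher and 17 lower, H3K27ac 30 lower and H3K4me3 37 higher. For H3K4me3, 7 of the 37 then had no peak in any Ctrl library and could not be lower. Depth matching dropped peaks and left those kept at their deposited width. Read depth is unknown, so a gene without a called peak is not shown to lack the mark.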
